A study of Mus musculus with 65 samples.

Results

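LDB1 sites that carried the cohesin subunit RAD21 and the transcription factor YY1 but no CTCF were examined in G1E-ER4 cells, a mouse erythroblast line. They were defined as peaks of LDB1 in untreated LDB1-AID cells, on chromosomes 1 to 19 and X, that shared at least 1 bp with a RAD21 peak and with a YY1 peak of the same cells and none with a CTCF peak. There were 791 such sites among 10729 LDB1 peaks (7.37%), and they are called triple sites hereafter. They were chosen by the called peaks of the 4 untreated LDB1-AID sets, so the presence of RAD21 and YY1 and the absence of CTCF are not results.

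LDB1 is an adaptor that does not bind DNA itself. In erythroid cells it is recruited by GATA1 and TAL1 through LMO2, and it can dimerise, which is thought to hold enhancers and promoters together. Cohesin is a ring complex, with SMC3 and RAD21 among its subunits, that extrudes DNA loops and accumulates where CTCF halts it. YY1 is a zinc finger protein found at active promoters and enhancers, where it too has been linked to enhancer-promoter contacts. At a triple site an LDB1 peak thus overlaps called peaks of RAD21 and YY1 but no called CTCF peak. The peaks come from separate experiments, so binding of the 3 proteins at the same time was not tested. CTCF can still lie close by, since the definition excludes only an overlap with the LDB1 peak.

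The report uses 9 peak sets from ChIP-seq, in which DNA bound by a protein is pulled down with an antibody and sequenced, covering 22 of the 65 samples. In LDB1-AID cells, where LDB1 is fused to a degron that has the protein degraded once auxin is added, the sets were LDB1, CTCF, RAD21 and YY1 without treatment and LDB1 after 4 h of auxin. In SMC3-AID cells, where the same kind of tag is on SMC3, they were LDB1 and RAD21, each without treatment and after 4 h of auxin. Both degron lines are sublines of G1E-ER4, so a difference between them is a difference between 2 derived lines. Each LDB1-AID set combined 2 replicates and each SMC3-AID set 3, and the replicates were combined before deposit. A set lists 400 bp intervals with no height, so no value has a replicate error, the read depth is unknown, and a site is either called or not called. On these chromosomes the sets ranged from 54223 CTCF peaks to 24 RAD21 peaks after SMC3 depletion. The other sets held 33160 RAD21, 12816 YY1 and 1043 auxin LDB1 peaks in LDB1-AID cells, and 8585 untreated LDB1, 7237 auxin LDB1 and 15223 untreated RAD21 peaks in SMC3-AID cells. Positions are in build mm9, named in the submitters' processing notes, and are counted from 1. No sequence or gene annotation of that build was used here, so the sites are given by position alone, without genes or exons.

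At a triple site the RAD21 peak lay nearer to LDB1 than the YY1 peak did. The median distance between peak centres was 78 bp from LDB1 to RAD21 (quartiles 34 and 146.5 bp) and 120 bp from LDB1 to YY1 (53 and 204 bp). RAD21 was the nearer of the pair at 483 of 791 sites (61.1%), YY1 at 306, and both were equally far at 2. LDB1 and RAD21 centres were within 50 bp of each other at 279 sites (35.3%), and LDB1 and YY1 centres at 189 (23.9%). These distances come from the sets that chose the sites and are a description with no test. They were close to those of the LDB1 sites that carried only 1 of the pair. At the 1369 LDB1 sites with RAD21 but neither YY1 nor CTCF (RAD21-only sites) the median LDB1 to RAD21 distance was 72 bp. At the 1182 with YY1 but neither RAD21 nor CTCF (YY1-only sites) the median LDB1 to YY1 distance was 118 bp. At the 175 LDB1 sites with RAD21, YY1 and CTCF, by contrast, RAD21 was a median of 106 bp from LDB1 and YY1 126 bp.

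**Figure D1:**
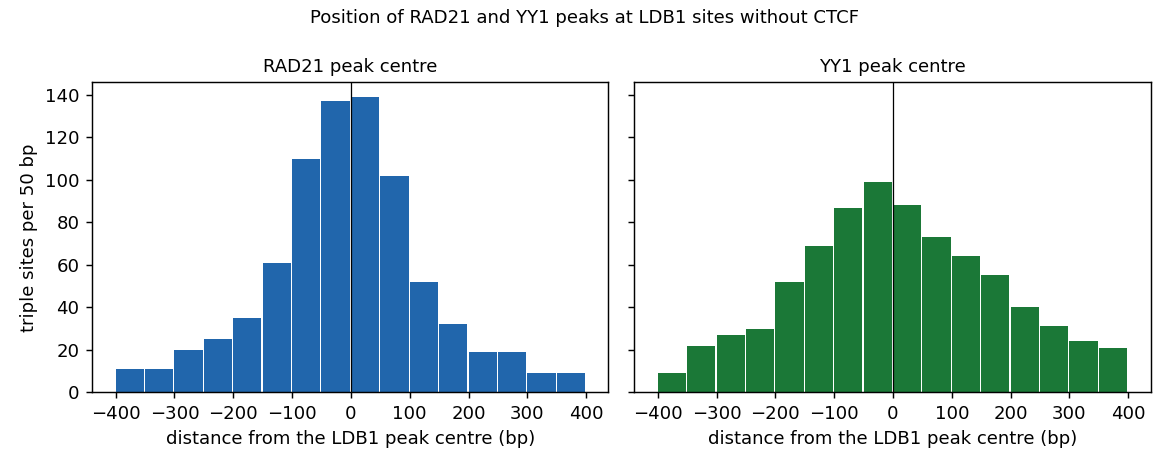
Number of the 791 triple sites (vertical axis) by the distance of the RAD21 peak centre (left) or the YY1 peak centre (right) from the LDB1 peak centre in bp, in bins of 50 bp. RAD21 centres pile up within 50 bp on either side of LDB1, with 137 and 139 sites in the 2 central bins, whereas YY1 centres spread more widely, with 99 and 88.

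RAD21 and YY1 lay on the same side of LDB1 about as often as on opposite sides. Of the 786 triple sites where both centres were off the LDB1 centre, both lay on the same side at 400 (50.9%) and on opposite sides at 386. The positions in this paragraph also come from the sets that chose the sites and carry no test. LDB1 was the middle centre at 386 sites, RAD21 at 234 and YY1 at 164, with 7 ties. RAD21 and YY1 peaks overlapped each other at 729 sites (92.2%). At the other 62 sites each overlapped LDB1 but they did not overlap each other, so no base was common to all 3 peaks. The 3 centres spanned a median of 176 bp (quartiles 106.5 and 278.5 bp, range 2 to 706 bp), and they fell within 100 bp at 185 sites (23.4%).

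Sites at the edge of the definition are given once, with no test. The shortest overlap of a triple site was 2 bp, at chr3:145613449-145613848 (RAD21) and at chr16:32520509-32520908 (YY1), followed by 3 bp at chr1:23390106-23390505 (RAD21). The nearest LDB1 peaks outside the definition fell 1, 2 and 3 bp short of sharing a base with a YY1 peak, at chr19:32338247-32338646, chr1:183772478-183772877 and chr2:45027303-45027702. None of these 6 peaks was called after LDB1 depletion. All 3 outside were called in both LDB1 sets of SMC3-AID cells. Of the 3 inside, that held for the site on chromosome 16, while the site on chromosome 1 was called after auxin alone and the site on chromosome 3 in neither.

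LDB1 depletion was followed first, in the auxin set that the definition did not use. Across all 10729 LDB1 peaks 7.77% were still called after 4 h of auxin. At triple sites it was 229 of 791, or 29.0% (Wilson 95% interval 25.9 to 32.2). Shares were lower in each class that lacked 1 member of the pair. They were 204 of 1369 (14.9%, 13.1 to 16.9) at RAD21-only sites and 116 of 1182 (9.81%, 8.25 to 11.6) at YY1-only sites. At the 6593 LDB1 sites with none of RAD21, YY1 and CTCF, 3.08% were kept. The odds of being kept were 2.33 times those of RAD21-only sites (95% interval 1.87 to 2.90; two-sided Fisher's exact test, adjusted p = 4.69e-14). They were 3.74 times those of YY1-only sites (2.91 to 4.83; Fisher's exact test, adjusted p = 1.69e-26). Among peaks also called in untreated SMC3-AID cells the odds ratios were 2.26 and 3.95. Where RAD21 was also called in SMC3-AID cells, which leaves 119 triple and 112 RAD21-only sites, the first was 1.68 (0.937 to 3.01; Fisher's exact test, unadjusted p = 0.0741). Intervals and p-values here and below count peaks as independent and cover counting error only, since peaks of 1 set share their libraries. The p-values were adjusted by the Benjamini-Hochberg method over 29 comparisons of triple sites with the 7 other classes, of which 24 had an adjusted p below 0.05. For retention after LDB1 depletion 6 of the 7 comparisons did; the exception was the 42 LDB1 sites with CTCF and YY1 (16.7% kept; odds ratio 2.04, 0.874 to 5.51; Fisher's exact test, adjusted p = 0.130). The sets hold no peak height, so whether triple sites were the taller LDB1 peaks was not tested.

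The higher share was seen on most chromosomes. On the 19 autosomes the kept share of triple sites ranged from 20.7% on chromosome 14 to 43.8% on chromosome 8, with a median of 25.9%. It was above that of RAD21-only sites on 18 of 19 autosomes, chromosome 4 being the exception (23.1% against 25.5%). It was above that of YY1-only sites on 18 of 19 as well, chromosome 14 being the exception (20.7% against 21.9%). On X, 2 of 5 triple sites were kept.

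The presence of CTCF beside RAD21 and YY1 went with a lower share. Of the 175 LDB1 sites with all 3 proteins, 36 were kept (20.6%, 15.2 to 27.2), and the odds at triple sites were 1.57 times theirs (1.05 to 2.41; Fisher's exact test, adjusted p = 0.0312). This comparison did not hold under every setting. Among peaks also called in untreated SMC3-AID cells the odds ratio was 1.35 (0.854 to 2.17; Fisher's exact test, unadjusted p = 0.197), and where overlaps had to cover 50% of each peak it was 1.07 (0.582 to 2.05). The 50% rule also applied to CTCF, so a site with a shorter CTCF overlap could count as a triple site.

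RAD21 and YY1 together were compared with what each did alone, over the 9935 LDB1 peaks without CTCF. The odds ratio of being kept with YY1 was 2.33 (1.87 to 2.90) where RAD21 was present and 3.42 (2.68 to 4.37) where it was not. The ratio of these odds ratios was 0.679 (0.494 to 0.935, unadjusted), from the interaction term of a logistic model. After adjustment over 4 such ratios p was 0.0706, so a departure from odds that multiply was not established. For presence in untreated SMC3-AID cells the ratio was 1.01 (0.781 to 1.31), and for retention after SMC3 depletion it was 1.13 (0.744 to 1.71). These ratios were chosen after the data were seen.

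Triple sites made up 7.37% of the untreated LDB1 peaks and 27.5% of the 834 that were kept. Between the untreated and auxin sets the LDB1 centre shifted by a median of 42 bp at the 229 triple sites (quartiles 20 and 80 bp), against 37 bp at RAD21-only and 33.5 bp at YY1-only sites. The auxin LDB1 peaks were also classed by the RAD21, YY1 and CTCF peaks of untreated LDB1-AID cells. Presence of these proteins after LDB1 depletion was therefore not examined. Of the auxin peaks, 836 lay at an untreated LDB1 peak, and 226 of them (27.0%) overlapped untreated RAD21 and YY1 without CTCF. A further 207 auxin LDB1 peaks lay at no untreated LDB1 peak. Of these, 23 (11.1%) overlapped untreated RAD21 and YY1 without CTCF, 57 YY1 alone and 67 none of the 3.

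**Figure D2:**
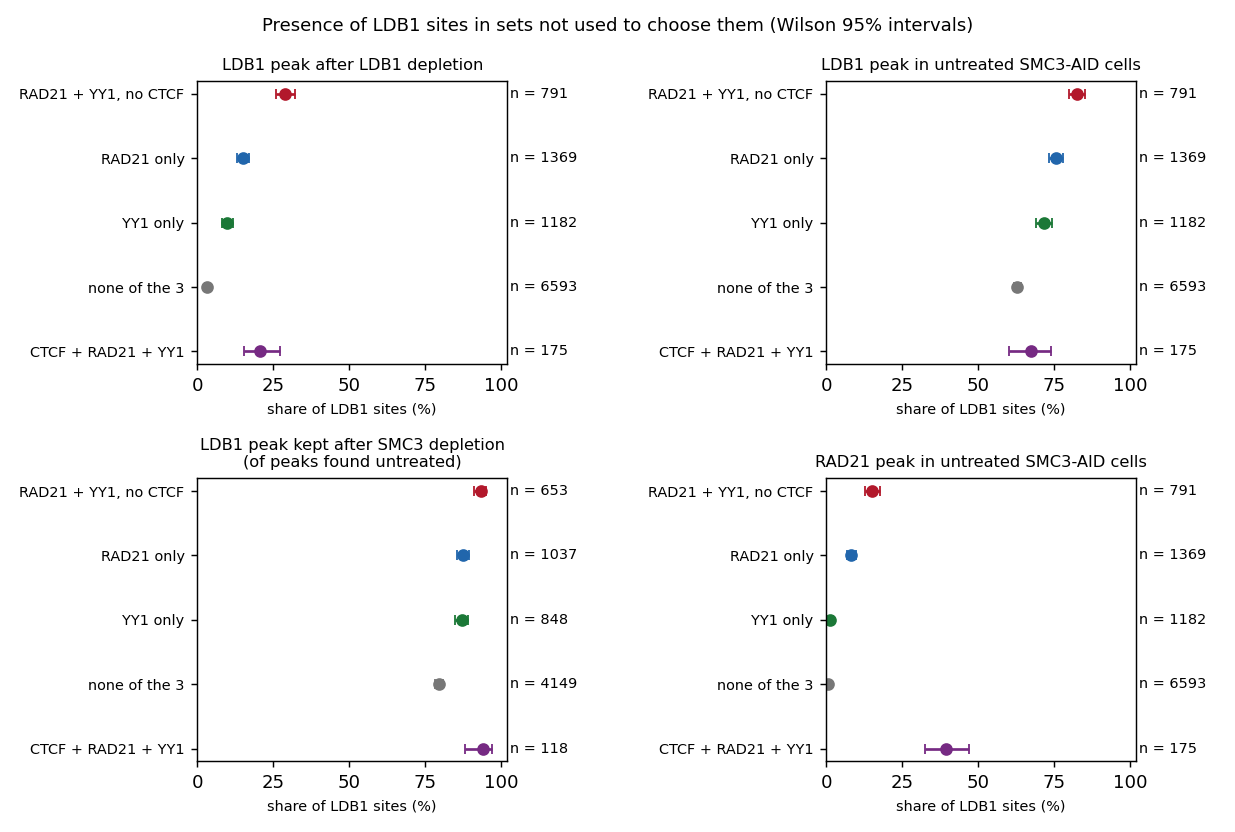
Share of LDB1 sites in percent (horizontal axis) called in 4 other peak sets, for triple sites and 4 other classes of LDB1 site. Points are shares and bars Wilson 95% intervals. The SMC3 depletion panel counts only peaks found in untreated SMC3-AID cells (653 triple sites). Triple sites are highest of the 5 classes after LDB1 depletion (29.0%) and in untreated SMC3-AID cells (82.6%). Sites with CTCF, RAD21 and YY1 are highest for RAD21 of SMC3-AID cells (39.4%) and after SMC3 depletion (94.1% against 93.3% at triple sites, with overlapping intervals).

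Triple sites recurred more often in the other subline. Of all LDB1 peaks 67% were called in untreated SMC3-AID cells, and of triple sites 653 of 791 were (82.6%, 79.8 to 85.0). The share was 75.7% (73.4 to 78.0) at RAD21-only sites and 71.7% (69.1 to 74.2) at YY1-only sites. The odds ratio was 1.51 (1.21 to 1.91; Fisher's exact test, adjusted p = 0.000348) against the former and 1.86 (1.48 to 2.35; adjusted p = 5.94e-08) against the latter. Sites with CTCF in addition were found less often, at 67.4% (60.2 to 73.9; odds ratio 2.29, 1.55 to 3.34; Fisher's exact test, adjusted p = 3.02e-05). Where a triple site was found, its centre lay a median of 26 bp from its counterpart, and 497 of 653 (76.1%) were within 50 bp. RAD21-only and YY1-only sites had the same median of 26 bp.

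Cohesin was then removed. RAD21 was called at 0 of 791 triple sites after 4 h of auxin in SMC3-AID cells, and at 2 of all 10729 LDB1 peaks. Only 119 of the 791 had a RAD21 peak in these cells without auxin and so could lose one. The whole auxin RAD21 set held 24 peaks, so the 0 is not particular to triple sites. LDB1 stayed. Of the 653 triple sites with LDB1 in untreated SMC3-AID cells, 609 still had it after auxin (93.3%, 91.1 to 94.9), against 83.3% of all 7192 LDB1 peaks found there. RAD21-only sites kept 87.6% (85.4 to 89.4; odds ratio 1.97, 1.36 to 2.88; Fisher's exact test, adjusted p = 0.000226). YY1-only sites kept 87.1% (84.7 to 89.2; odds ratio 2.04, 1.40 to 3.02; Fisher's exact test, adjusted p = 0.000168). Sites with CTCF, RAD21 and YY1 kept 94.1% (88.3 to 97.1). Their difference from triple sites was not resolved, with an odds ratio of 0.873 and an interval of 0.323 to 2.02 (Fisher's exact test, adjusted p = 0.873). The LDB1 centre at triple sites after SMC3 depletion was a median of 29 bp from that in untreated LDB1-AID cells, close to the 26 bp between the untreated sublines. Counted over all 791, 625 triple sites had LDB1 in the auxin-treated SMC3-AID set (79.0%, 76.0 to 81.7), against 59% of all LDB1 peaks. Of the 138 triple sites not called in untreated SMC3-AID cells, 16 were called after auxin.

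The cohesin peak itself recurred far less often than LDB1. A RAD21 peak of untreated SMC3-AID cells lay at 119 triple sites (15.0%, 12.7 to 17.7), although the definition required RAD21 at all of them in LDB1-AID cells. Over all 10729 LDB1 peaks the share was 4.70%, but only 2697 of them carried RAD21 in LDB1-AID cells, so the 2 shares are not alike. At RAD21-only sites it was 8.18% (6.84 to 9.75), so among sites without CTCF RAD21 recurred more often where YY1 was present (odds ratio 1.99, 1.496 to 2.64; Fisher's exact test, adjusted p = 2.30e-06). Sites with CTCF had the other order, with overlapping intervals and no test. The share was 39.4% (32.5 to 46.8) with CTCF, RAD21 and YY1, and 43.4% (38.4 to 48.5) at the 362 sites with CTCF and RAD21 but no YY1. The RAD21 set of SMC3-AID cells held 15223 peaks against 33160 in LDB1-AID cells, and the part of set size in the low shares was not tested. At 11 of the 119 triple sites (9.24%) the SMC3-AID RAD21 peak touched a CTCF peak of LDB1-AID cells, and counting only those that did not gave an odds ratio of 2.14. In LDB1-AID cells the RAD21 or YY1 peak of 36 triple sites (4.55%) touched CTCF. Without sites of that kind the odds ratio of being kept after LDB1 depletion was 2.32 against RAD21-only sites.

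Set by set, the 791 triple sites fell into a few patterns. The largest held 340 sites (43.0%) with LDB1 in both SMC3-AID sets, no LDB1 after LDB1 depletion and no RAD21 in SMC3-AID cells. Next came 161 sites (20.4%) that differed from these in keeping LDB1 after LDB1 depletion. A total of 104 sites (13.1%) were in none of the 4 other sets. In all, 208 sites (26.3%) had LDB1 in all 3 other LDB1 sets. Of these 208, 47 also had RAD21 in SMC3-AID cells, which is 5.94% of all 791.

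The 10 most compact of those 47 sites, by the span of the LDB1, RAD21 and YY1 centres, covered 66 to 107 bp. Their LDB1 centres after LDB1 depletion lay 14 to 259 bp from those in untreated cells, so a compact site was not always one whose LDB1 centre was called at the same position. The most compact, chr18:3270531-3270930, was displaced by 173 bp. At chr16:92801538-92801937 the displacement was 259 bp after LDB1 depletion, 270 bp in untreated SMC3-AID cells and 273 bp after SMC3 depletion. All were to the same side, so this displacement was also seen in a set without depletion. At chr3:37558451-37558850 RAD21 was 72 bp and YY1 2 bp from LDB1, and the displacement after LDB1 depletion was 34 bp. At chr1:153862732-153863131 RAD21 was 1 bp and YY1 93 bp from LDB1, no other LDB1 peak lay within 25 kb, and the LDB1 centre in SMC3-AID cells was displaced by 7 bp untreated and 0 bp after auxin. At chr15:42354709-42355108 the nearest CTCF peak was 85240 bp away. At chr3:153454779-153455178 it was 446 bp away.

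Triple sites with and without another feature were compared with each other in 12 comparisons chosen after the data were seen, of which 7 concerned retention after LDB1 depletion and the others presence or retention in SMC3-AID cells. Sites with LDB1 in untreated SMC3-AID cells were kept at 32.5% (29.0 to 36.2), and the 138 without at 12.3% (7.84 to 18.8; odds ratio 3.42; Fisher's exact test, adjusted p = 6.82e-06). Sites that kept LDB1 after SMC3 depletion also kept it after LDB1 depletion more often, at 208 of 609 (34.2%) against 4 of 44 (9.09%; odds ratio 5.19, 1.83 to 20.2; Fisher's exact test, adjusted p = 0.00138). With RAD21 in SMC3-AID cells 49 of 119 were kept (41.2%), and without it 180 of 672 (26.8%; odds ratio 1.91, 1.25 to 2.91; Fisher's exact test, adjusted p = 0.00614). RAD21 and LDB1 also recurred together, since LDB1 of untreated SMC3-AID cells was present at 115 of the 119 sites with RAD21 there (96.6%) and at 80.1% of the rest (odds ratio 7.16; Fisher's exact test, adjusted p = 7.64e-06).

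Other features did not separate kept from lost sites beyond counting error. Compact sites, whose 3 centres spanned no more than the median of 176 bp, were kept at 28.5% and wider ones at 29.4% (odds ratio 0.957, 0.695 to 1.32; Fisher's exact test, adjusted p = 0.934). With CTCF within 5 kb 26.5% were kept, and beyond it 30.7% (odds ratio 0.813, 0.586 to 1.13; Fisher's exact test, adjusted p = 0.351). Sites with another LDB1 peak within 25 kb were kept at 27.1% and isolated sites at 34.9% (odds ratio 0.692, 0.482 to 0.999; Fisher's exact test, p = 0.0431 and adjusted p = 0.103). Once SMC3 was depleted, LDB1 retention was 93.9% at sites with and 93.1% at sites without RAD21 in untreated SMC3-AID cells (odds ratio 1.14, 0.484 to 3.11; Fisher's exact test, adjusted p = 1).

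**Figure D3:**
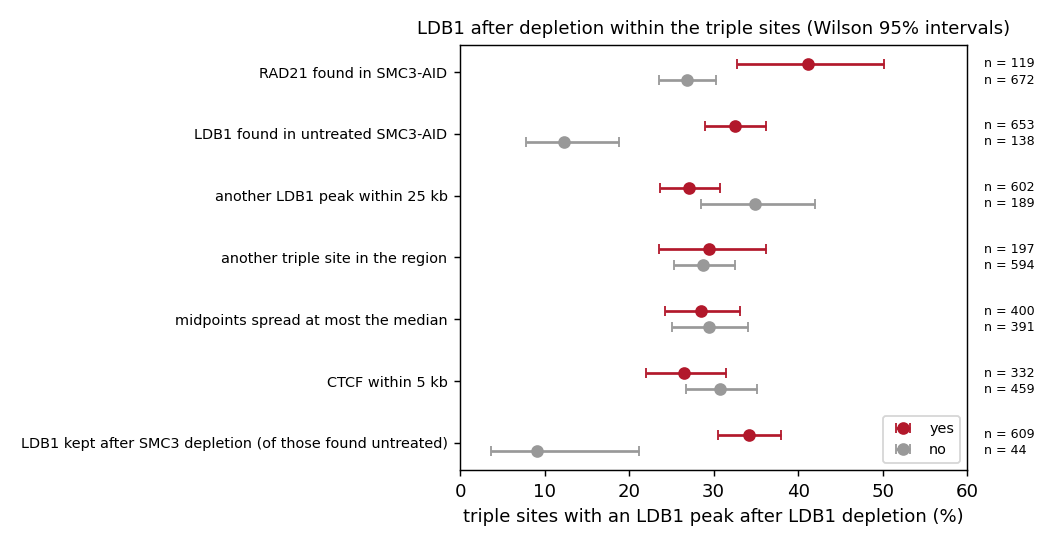
Share of triple sites in percent (horizontal axis) with an LDB1 peak after LDB1 depletion, divided by 7 features into sites with the feature (red) and without it (grey). Points are shares and bars Wilson 95% intervals. The intervals stand apart for LDB1 or RAD21 called in SMC3-AID cells and for LDB1 kept after SMC3 depletion, and overlap for the other 4 features.

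CTCF was absent from triple sites by definition but seldom far away. The nearest CTCF centre was a median of 6978 bp from LDB1 (quartiles 2301 and 18181 bp, range 402 to 349145 bp). It was within 1 kb at 84 sites (10.6%) and within 10 kb at 466 (58.9%), and more than 50 kb away at 49. RAD21-only sites lay farther out, with a median of 8498 bp and 134 sites beyond 50 kb, and YY1-only sites nearer, with a median of 5948 bp. LDB1 sites with none of the 3 proteins had a median of 7346 bp. CTCF peaks helped choose the sites, so these distances carry no test.

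**Figure D4:**
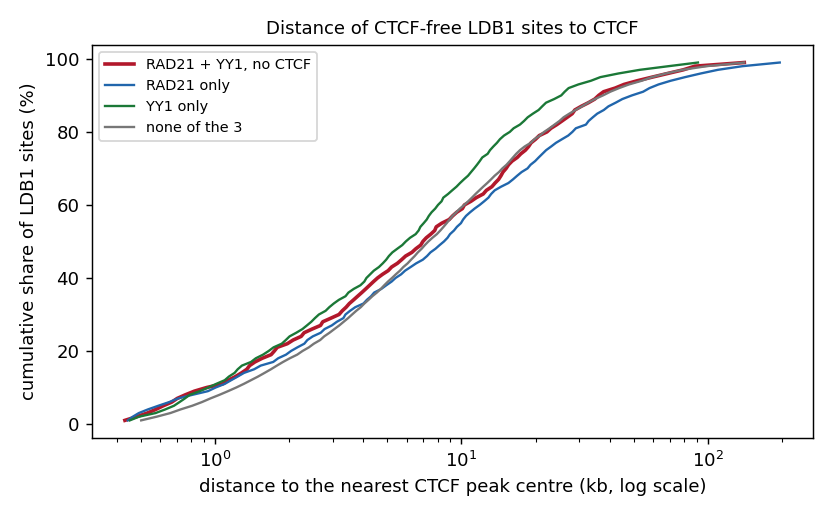
Cumulative share of LDB1 sites in percent (vertical axis) by distance to the nearest CTCF peak centre in kb (horizontal log axis), for the 4 classes of LDB1 site without CTCF. At the median the triple sites (red, 6978 bp) lie between YY1-only sites (5948 bp) and RAD21-only sites (8498 bp), while at the short end, up to about 1 kb, the 3 curves cross.

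Triple sites were less often alone than YY1-only sites. Of 791, 602 (76.1%) had another untreated LDB1 peak within 25 kb, and 176 (22.3%) lay in regions of 5 or more LDB1 peaks, where a region is a chain of LDB1 peaks with gaps of at most 25 kb. For RAD21-only sites these shares were 74.6% and 23.0%, for YY1-only sites 64.3% and 12.4%. The neighbours were then counted in untreated SMC3-AID cells, a set not used to choose the sites. There 536 triple sites had an LDB1 peak within 25 kb besides the one at the site itself (67.8%, 64.4 to 70.9), against 53.5% over all LDB1 peaks. The share was 53.6% (50.7 to 56.4) at YY1-only sites (odds ratio 1.82, 1.504 to 2.21; Fisher's exact test, adjusted p = 7.64e-10). It was 65.1% (62.5 to 67.6) at RAD21-only sites, and that difference did not pass the test (odds ratio 1.13, 0.933 to 1.37; Fisher's exact test, adjusted p = 0.236). When the first site of each class in a chain was counted alone, the last odds ratio was 1.303 (1.06 to 1.60; Fisher's exact test, unadjusted p = 0.00939). The nearest LDB1 peak was itself a triple site at 86 of the 602 sites with a neighbour (14.3%). Triple sites were 7.37% of all LDB1 peaks, so most neighbours would be of another class in any case. The 7.37% also counts LDB1 peaks with no neighbour, which cannot be a nearest neighbour, so the 2 shares are not alike. Their difference was not tested.

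The 791 sites were spread over 686 regions. Of these, 594 held 1 triple site, 80 held 2, 11 held 3 and 1 held 4. Triple sites were 7.46% (6.98 to 7.98) of LDB1 peaks on the autosomes and 5 of 195 on X (2.56%, 1.10 to 5.86).

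The region with 4 triple sites was chr2:78918918-78972044 (53.1 kb), where 4 of 5 LDB1 peaks were triple sites and 3 CTCF peaks lay in the region. LDB1 was called at none of its 5 LDB1 peaks after LDB1 depletion. In SMC3-AID cells 2 of the 4 triple sites had LDB1 untreated and 1 after SMC3 depletion. The site at chr2:78939753-78940152 was the one present in both, and it was also the farthest from CTCF, at 19606 bp against 1788 to 2801 bp for the other 3. Over all triple sites distance to CTCF did not separate presence in untreated SMC3-AID cells. The share was 83.1% with CTCF within 5 kb and 82.1% beyond (odds ratio 1.07, 0.727 to 1.59; Fisher's exact test, adjusted p = 0.934). The site at chr2:78966606-78967005 had RAD21 but no LDB1 in SMC3-AID cells.

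Of the 11 regions with 3 triple sites, the 9 with the most LDB1 peaks are described, ties being taken in order of chromosome and start. They differed in which sets had LDB1. At chr1:69540049-69563116 (23.1 kb) no CTCF peak lay in the region. There 2 of 3 triple sites kept LDB1 after LDB1 depletion, all 3 had LDB1 in both SMC3-AID sets, and the same 2 had RAD21 in untreated SMC3-AID cells. Of all 5 LDB1 peaks in the region 3 were kept and 3 had RAD21 in those cells. The RAD21-only site of the region thus behaved like the 2 triple sites. At chr8:125190229-125260459 (70.2 kb) 2 of 3 were also kept after LDB1 depletion, and they were the only ones kept among the 9 LDB1 peaks of the region. All 9 were found in both LDB1 sets of SMC3-AID cells, and 5 of the 9 carried none of RAD21, YY1 and CTCF. At chr11:87953759-87978228 (24.5 kb) 2 of 3 were kept after LDB1 depletion, and the same 2 had LDB1 in SMC3-AID cells with and without auxin. The third site, at chr11:87977829-87978228, was in none of the other sets.

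In 4 more regions no triple site was called after LDB1 depletion while at least 2 of 3 had LDB1 after SMC3 depletion. The region chr12:78157757-78201112 had 13 LDB1 peaks, and 2 of them were kept after LDB1 depletion, neither a triple site. Its 3 triple sites all had LDB1 after SMC3 depletion, and 2 of them did in untreated SMC3-AID cells. At chr6:38832817-38874353 the 6 LDB1 peaks outside the triple sites carried none of the 3 proteins. Here 2 of the 9 LDB1 peaks were kept after LDB1 depletion, neither a triple site, and all 3 triple sites were in both SMC3-AID sets. At chr2:68709061-68787772 no CTCF peak lay within the 78.7 kb, and its 3 triple sites were 24054 to 87676 bp from the nearest one. All 3 had LDB1 in both SMC3-AID sets. At chr7:56114713-56164308 all 3 had LDB1 untreated in SMC3-AID cells and 2 after auxin.

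At chr5:97348269-97418308 1 of 3 triple sites was kept after LDB1 depletion, at chr5:97380543-97380942, and it was also the only one of the 3 with RAD21 in SMC3-AID cells. All 3 had LDB1 in both SMC3-AID sets. The region chr16:44943469-44965251 stood lower, with LDB1 at 0 of 3 after LDB1 depletion and at 1 of 3 in each SMC3-AID set, and no RAD21 at any of the 3 in SMC3-AID cells.

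**Figure D5:**
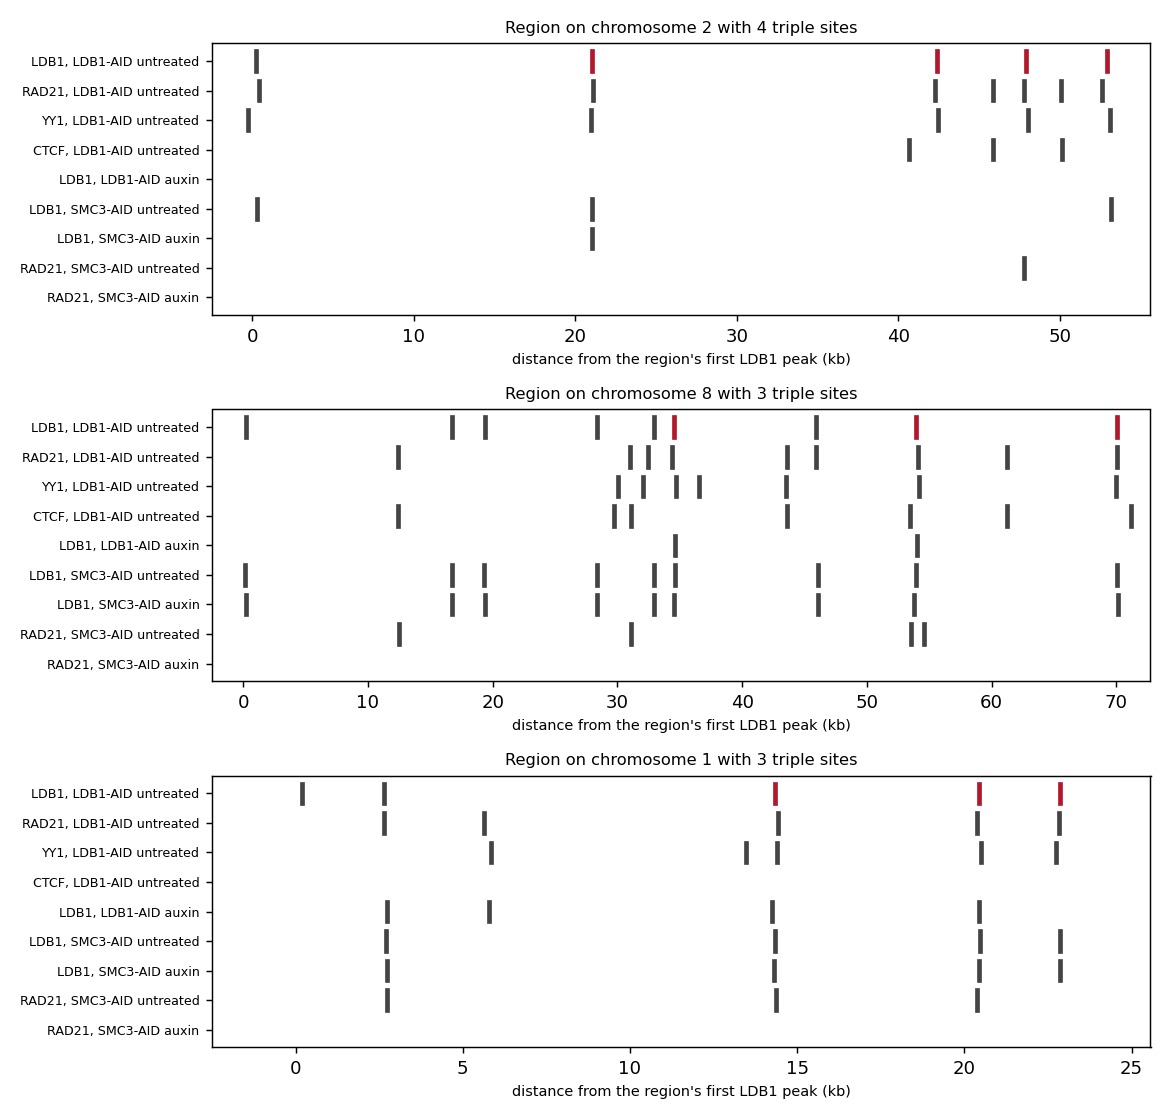
Peaks of the 9 sets (rows) in 3 of the named regions, by distance in kb from the first LDB1 peak of each region. Each tick is 1 peak and triple sites are red. The region on chromosome 2 has no LDB1 peak after LDB1 depletion, the region on chromosome 8 keeps 2 of its 9, both triple sites, and the region on chromosome 1 has no CTCF peak.

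RAD21 peaks without CTCF gave the reverse view. Of 1869 that carried YY1, 748 (40.0%, 37.8 to 42.3) overlapped LDB1, and of 4458 without YY1, 1326 (29.7%, 28.4 to 31.1) did. The remaining 1121 RAD21 peaks with YY1 had neither LDB1 nor CTCF. These counts come from the sets that defined the sites and carry no test.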

How the data were processed

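The authors deposited each peak set as a list of 400 bp intervals (chromosome, start and end in bp), made from all replicates of a group, with no score, signal or p-value. The submitters' processing notes name Bowtie2, MACS2 2.2.9.1, deepTools 3.5.1 and build mm9; the consensus rule, thresholds and filters are not given in the sources used here. The remaining 43 samples were not analysed here.

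Peaks were overlapped by at least 1 bp with Python 3.11.15 and numpy 2.4.6, which gave the same counts as bedtools 2.31.1 and was tested on simulated data. Shares have Wilson 95% intervals (scipy 1.17.1), and classes were compared by two-sided Fisher's exact tests with sample odds ratios, conditional 95% intervals and Benjamini-Hochberg adjustment. The logistic model used statsmodels 0.14.6. Other overlap rules, autosomes, 1 site per chain, presence in the other subline and neighbour distances were alternatives. Sites and comparisons were chosen with earlier results of these data known. Named are the 10 regions with the most triple sites (ties by number of LDB1 peaks, then by chromosome and start), the most compact sites found in all other sets (those printed from the 10 were chosen after their values were seen) and sites at the edge of the definition. Planned promoter and motif comparisons were not run, since no sequence or annotation of mm9 was used.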

Additional observations from a re-analysis of the deposited data

How the results depend on the processing

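Of 107 alternative odds ratios, 99 kept their direction and their side of the 0.05 threshold (unadjusted Fisher's exact p), and all 10 alternative counts stayed within 1.5 times. The number of triple sites ranged from 548 where overlaps had to cover 50% of each peak to 945 with a gap of at most 1 kb. Each overlap rule was applied to CTCF and to the other sets too. With 50% overlaps a shorter CTCF overlap thus counted as no CTCF, and with the 1 kb gap CTCF was excluded over a wider distance. Retention after LDB1 depletion against RAD21-only sites lost its call (odds ratio 1.68, 0.937 to 3.01, Fisher's exact p = 0.0741) among the 119 triple and 112 RAD21-only sites with RAD21 also in SMC3-AID cells. That setting was added once the data were known and leaves fewer sites. Against sites with CTCF, RAD21 and YY1 retention lost its call with 50% overlaps (1.07) and among peaks found in untreated SMC3-AID cells (1.35). For the same class, retention after SMC3 depletion, uncalled at 0.873, turned to 1.44 with 50% overlaps, 1.06 with midpoints within 500 bp and 1.005 with a gap of 1 kb, with 1 inside each interval. The neighbour comparison with this class lost its call within 10 kb (1.302, Fisher's exact p = 0.129), and that with RAD21-only sites gained a call with 1 site per chain (1.303). The cause of these changes was not tested. No paired analysis was possible because each set combines its replicates. Depth is unknown for every set, so a missing peak is not shown to be missing protein.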
